A study of Mus musculus with 4 samples.

Results

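The genes described here code for digestive enzymes and cofactors of the exocrine pancreas, measured in mouse colon. The 10 genes are *Amy1*, *Pnlip*, *Cpb1*, *Prss1*, *Prss2*, *Try4*, *Ctrb1*, *Cpa1*, *Cela1* and *Clps*, out of 22262 genes named by a probe on the array. They were chosen from the measured values: 8 of them for a high signal in 1 of the 4 RNA pools, the *Pla2g3*-/- pool given vehicle. *Cela1* and *Clps* were chosen because they were called level there, at under 2-fold below the *Pla2g3*+/+ vehicle pool. Every comparison that includes that pool is therefore a description of how the genes were picked, with no test. Their 12 probes were found by gene symbol, and all 12 are reported.

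Colon RNA of male mice aged 42 weeks was measured on 4 single-colour Agilent whole mouse genome arrays, 1 array per group. The groups were *Pla2g3*+/+ and *Pla2g3*-/- mice given saline as vehicle, and *Pla2g3*+/+ and *Pla2g3*-/- mice given azoxymethane (AOM), a carcinogen that induces colon tumours in rodents. AOM was injected into the peritoneum at 10 mg/kg weekly, 6 times in all, and colons were collected 28 weeks after the final dose. All mice had the mixed background B6.129 at backcross generation 3 and were pooled within a group, with 3 to 5 mice per pool in the deposited description. With 1 pool per group there was no replicate check, so no p-value is given for any comparison and a difference between groups cannot be told apart from a difference between pools.

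Acinar cells of the pancreas make these enzymes, most of them as inactive zymogens, store them in granules and release them into the duct that opens into the duodenum. Trypsin, formed from trypsinogens such as *Prss1*, *Prss2* and *Try4*, activates the other zymogens in the gut lumen. Amylase cuts starch, pancreatic lipase with its cofactor colipase cuts triglycerides, and the chymotrypsins, elastases and carboxypeptidases cut peptides. Their transcription in acinar cells depends on the PTF1 complex, which contains the factors *Ptf1a* and *Rbpjl*, whereas the colon is not known as a main site of their synthesis.

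The probes are single strands of 60 bases, and each member probe had 1 spot per array. Several enzymes belong to families of close copies, so a probe may also bind the RNA of a paralog. The following pair is shown because the trypsinogen probes overlap in sequence. The *Prss1* probe lies at chr6:41412628-41412687 and the *Prss2* probe at chr6:41473937-41473996 (mm9, plus strand), and capitals mark the bases that were identical when the 2 probes were aligned without gaps.
Prss1: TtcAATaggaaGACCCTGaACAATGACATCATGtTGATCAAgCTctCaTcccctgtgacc
Prss2: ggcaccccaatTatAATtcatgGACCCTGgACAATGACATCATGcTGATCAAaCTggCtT
Of 49 aligned bases, 36 were identical, with a longest shared run of 14. The amylase probes are shown for the same reason, that of *Amy1* at chr3:113258901-113258960 and that of *Amy2a5*, a pancreatic amylase outside the 10 genes, at chr3:113084781-113084840 (mm9, minus strand).
Amy1: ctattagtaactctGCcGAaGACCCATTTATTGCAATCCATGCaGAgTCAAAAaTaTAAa
Amy2a5: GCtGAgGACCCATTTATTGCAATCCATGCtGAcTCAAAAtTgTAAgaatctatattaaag
Here 39 of 46 aligned bases were identical, with a longest run of 23. The *Try4* probe and that of *Try5*, a further trypsinogen, shared 43 of 45 aligned bases and a run of 31. Signals of *Try4* and *Try5* are thus uncertain as to which of the 2 genes they come from, and those of *Amy1* and *Amy2a5* may overlap in part.

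Promoters were looked up in RefSeq (GRCm38.p6). Since the genes themselves were picked by signal and as enzymes of the exocrine pancreas, nothing is read from their motif counts beside the shares over all promoters. Of the 10 genes, 9 had an entry, with 10 promoters, and *Clps* had none. A gene was counted if any of its promoters matched, whereas the shares are of single promoters. Both strands of the 250 bases before each start were searched for CACCTG, an E-box of the kind bound by the PTF1 complex, for TTTCCCA, its TC-box, and for the TATA box TATAAA. Matches were counted for each motif on its own, even where 2 motifs could share bases. CACCTG was present for 5 of the 9 genes (*Cpb1*, *Try4*, *Prss1*, *Prss2*, *Cela1*) and in 17.2% of 32851 promoters. Since *Try4*, *Prss1* and *Prss2* are paralogs, their matches are not separate observations. TTTCCCA was present for 3 genes (*Cpa1*, *Prss2*, *Ctrb1*) and in 6.82% of promoters, and TATAAA for 6 genes and in 12.4%. *Prss2* had both the E-box and the TC-box, as did 1.17% of promoters. The 150 bases before the start are shown for the 3 trypsinogens, which were high in the *Pla2g3*-/- vehicle pool, and for *Cela1*, which was level, with CACCTG or TTTCCCA on either strand in capitals. Their positions are chr6:41302122-41302271 for *Try4*, chr6:41458780-41458929 for *Prss1* and chr6:41521626-41521775 for *Prss2* on the plus strand, and chr15:100687921-100688070 for *Cela1* on the minus strand.
Try4: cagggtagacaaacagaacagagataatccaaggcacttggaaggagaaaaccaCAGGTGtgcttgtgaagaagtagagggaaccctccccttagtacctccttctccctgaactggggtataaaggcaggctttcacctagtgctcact
Prss1: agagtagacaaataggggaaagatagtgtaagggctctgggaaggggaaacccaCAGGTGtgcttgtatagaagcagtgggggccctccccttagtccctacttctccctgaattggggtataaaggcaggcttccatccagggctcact
Prss2: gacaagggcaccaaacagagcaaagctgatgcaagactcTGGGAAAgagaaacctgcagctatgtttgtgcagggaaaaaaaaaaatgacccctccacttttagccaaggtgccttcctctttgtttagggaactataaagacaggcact
Cela1: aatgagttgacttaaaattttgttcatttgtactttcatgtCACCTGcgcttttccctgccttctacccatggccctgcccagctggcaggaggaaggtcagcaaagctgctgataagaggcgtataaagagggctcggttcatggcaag
Within the bases shown, the E-box began 96 bases before the start in *Try4* and in *Prss1* and 109 bases before it in *Cela1*. That of *Prss2*, 169 bases before its start, and a further one of *Prss1* lay among the 250 bases searched but outside those shown. The E-box was thus found for genes that differed between the vehicle pools and for a gene that was under 2-fold apart there. A match of letters is not evidence of binding.

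Signals are given as the intensity divided by the 75th percentile of the array, so that 1 equals that percentile, with the error that Feature Extraction assigned to the spot. That error covers the spot only and not the mice. The scanner software called 64.8% to 69.4% of the 43020 spots per array well above background and none saturated. *Pla2g3*, the targeted gene, has 3 probes, and its brightest gave 0.530 with vehicle in *Pla2g3*+/+ and 0.653 in the pool labelled *Pla2g3*-/-, against 0.232 and 1.39 in the AOM pools. No probe was lower in a pool labelled *Pla2g3*-/- than in the *Pla2g3*+/+ pool of the same treatment, and whether these probes lie in the deleted part of the gene is not given in the sources used here. Crossed labels, which would turn every ratio between genotypes, were not tested. The *Pla2g3*+/+ AOM array stood apart from the other 3. All 6 smooth muscle genes and 8 of 13 colon epithelium genes were over 2-fold lower there than in the *Pla2g3*+/+ vehicle pool, against 0 of 6 and 2 of 13 in the corresponding pair of pools labelled *Pla2g3*-/-. In pooled tissue, fewer cells of a type and less RNA per cell cannot be told apart.

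In the pool labelled *Pla2g3*-/- given vehicle all 12 probes were well above background. In the *Pla2g3*+/+ vehicle pool 9 were, and after AOM 5 in the *Pla2g3*+/+ pool and 7 in the pool labelled *Pla2g3*-/-.

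**Figure D1:**
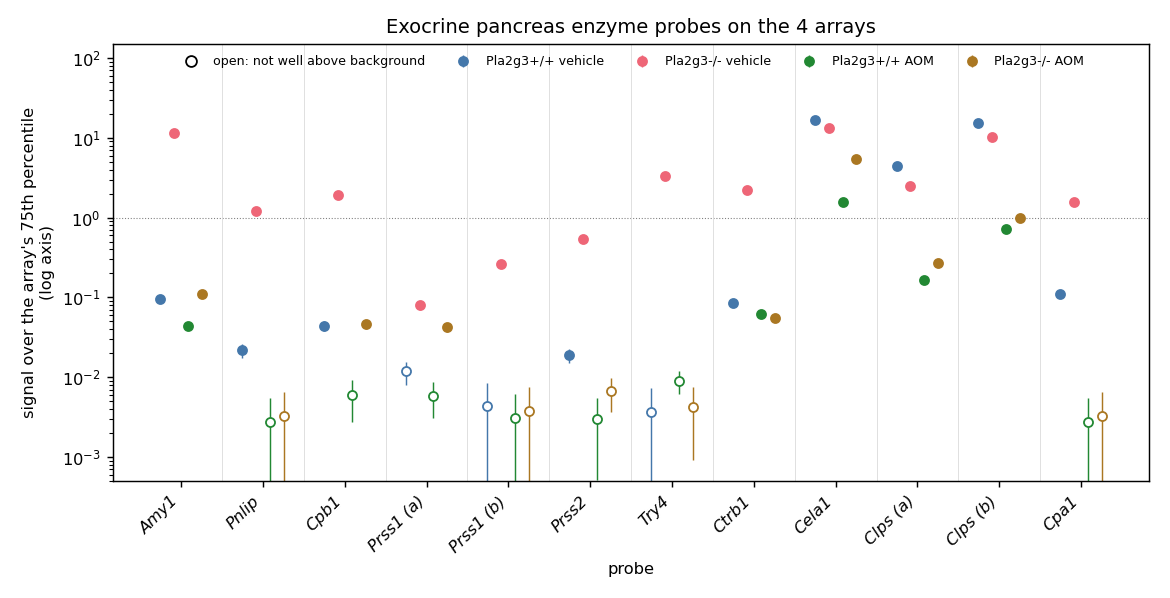
Signal of each of the 12 probes on the 4 arrays, as intensity over the array's 75th percentile on a log axis, with the scanner software's spot error as bars. *Prss1* (a) and (b) start at 41412628 and 41412562, and *Clps* (a) and (b) at 28695761 and 28695162. Open points were not well above background, and for all probes other than those of *Cela1* and *Clps* the vehicle pool labelled *Pla2g3*-/- had the highest point.

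The amylase and the lipase were both high in the vehicle pool labelled *Pla2g3*-/-. *Amy1*, known in mice as the amylase of salivary gland and liver, gave 0.0960 ± 0.0103 (spot error) in the *Pla2g3*+/+ pool and 11.7 ± 1.17 in the pool labelled *Pla2g3*-/- with vehicle, and 0.0441 ± 0.00516 and 0.109 ± 0.0114 after AOM. The high pool stood far above the other 3 and was 121-fold above its *Pla2g3*+/+ counterpart (log2 ratio 6.92 ± 0.21, spot error). The paralog *Amy2a5* was well above background in the pool labelled *Pla2g3*-/- with vehicle alone, at 34.6, whereas *Amy1* was above background in all 4. *Pnlip*, pancreatic triglyceride lipase (chr19:58755296-58755355, plus strand), gave 0.0218 ± 0.00429 and 1.19 ± 0.12 with vehicle, a 54.9-fold ratio (log2 5.78 ± 0.32). After AOM it was not well above background in either pool.

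The 3 trypsinogens lie near each other on chromosome 6. *Try4* (chr6:41255472-41255531, plus strand) gave 3.28 ± 0.328 in the vehicle pool labelled *Pla2g3*-/- and was not well above background in the other 3, a ratio of at least 198-fold with vehicle. *Prss2* gave 0.0188 ± 0.00383 in the *Pla2g3*+/+ vehicle pool and 0.545 ± 0.0547 in the pool labelled *Pla2g3*-/-, a 29.0-fold ratio (log2 4.86 ± 0.33), and was below the detection call after AOM. The 2 probes of *Prss1* were dim and did not behave alike. That at 41412628, which shares bases with the *Prss2* probe, gave 0.0793 ± 0.00939 in the vehicle pool labelled *Pla2g3*-/- and 0.0426 ± 0.00534 in the AOM pool labelled *Pla2g3*-/-. That at chr6:41412562-41412621 (plus strand) gave 0.261 ± 0.0267 in the former pool and was not well above background in the latter. Neither probe was well above background in a *Pla2g3*+/+ pool, so the ratios with vehicle were at least 4.79-fold and at least 15.8-fold. After normexp background correction with quantile normalization their log2 ratios were 0.84, under 2-fold, and 1.75. With the same processing the log2 ratio was 4.87 for *Try4*, 2.65 for *Prss2* and 3.40 for *Pnlip*.

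Among the other proteases, chymotrypsinogen B1 (*Ctrb1*, chr8:114210454-114210513, minus strand) gave 0.0862 ± 0.00934 and 2.20 ± 0.22 with vehicle, a 25.5-fold ratio (log2 4.67 ± 0.21), and 0.0617 ± 0.00671 and 0.0555 ± 0.00638 after AOM. Only the vehicle pool labelled *Pla2g3*-/- stood out. Carboxypeptidase B1 (*Cpb1*, chr3:20149467-20149526, minus strand) gave 0.0442 ± 0.00627 and 1.90 ± 0.191, a 43.1-fold ratio (log2 5.43 ± 0.25). After AOM it was not well above background in the *Pla2g3*+/+ pool and gave 0.0460 ± 0.00597 in the pool labelled *Pla2g3*-/-, close to the *Pla2g3*+/+ vehicle value. Carboxypeptidase A1 (*Cpa1*, chr6:30595240-30595299, plus strand) gave 0.110 ± 0.0116 and 1.59 ± 0.159 with vehicle, a 14.4-fold ratio (log2 3.85 ± 0.21), and was below the detection call in both AOM pools. Ratios of *Pnlip* and *Cpb1*, of *Cpb1* and *Prss2*, and of *Prss2* and *Ctrb1* differed by less than their summed spot errors. Those of *Amy1* and *Cpa1* lay outside the errors of the genes next to them among the measured ratios.

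*Cela1* and *Clps* had the other pattern. Elastase 1 (*Cela1*, chr15:100515014-100515073, minus strand) gave 16.5 ± 1.65 in the *Pla2g3*+/+ pool and 13.1 ± 1.31 in the pool labelled *Pla2g3*-/- with vehicle, and 1.57 ± 0.157 and 5.50 ± 0.55 after AOM. Its vehicle pools were the higher pair, and their ratio of 0.795 (log2 -0.33 ± 0.20) was under 2-fold. Colipase (*Clps*), the cofactor of pancreatic lipase, has 2 probes. The probe at chr17:28695761-28695820 (minus strand) gave 4.44 ± 0.444 and 2.49 ± 0.249 with vehicle and 0.166 ± 0.0168 and 0.269 ± 0.0271 after AOM. The probe at chr17:28695162-28695221 (minus strand) gave 15.3 ± 1.53 and 10.1 ± 1.01 with vehicle and 0.712 ± 0.0712 and 0.991 ± 0.0992 after AOM. Both probes were higher in the vehicle pools and ordered the 4 pools alike, with vehicle ratios of 0.560 (log2 -0.84 ± 0.20) and 0.664 (log2 -0.59 ± 0.20).

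With vehicle, 9 of the 12 probes, covering 8 genes, were thus over 2-fold higher in the pool labelled *Pla2g3*-/- and 0 were lower. Over all 26554 probes with a ratio, 2.12% were over 2-fold higher and 1.53% lower. The median log2 ratio was 4.33 over the 12 probes and -0.04 over all probes. Since the genes were picked on this array, nothing is read from that gap. Among 15622 genes well above background in the vehicle pool labelled *Pla2g3*-/-, ordered by their ratio with bounds included, *Try4* was at rank 4, *Amy1* at 8, *Pnlip* at 11, *Cpb1* at 13, *Prss2* at 18, *Ctrb1* at 21, *Cpa1* at 29 and *Prss1* at 106. *Cela1* and *Clps* were at 14307 and 15273. Since some ratios are bounds, these ranks are not exact. The rank of *Prss1* rests on its probe at 41412628, with a log2 ratio of at least 2.26. Its other probe, at 41412562, had a higher bound of at least 3.98.

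Which other genes had ratios of this size was read from the 15 largest. Besides 4 of the 10 genes, these were 5 further exocrine pancreas genes, *Amy2a5*, *Try5*, *Cela3b*, *Reg2* and *Cela2a*, and 6 major urinary protein genes, *Mup19*, *Mup18*, *Mup17*, *Mup20*, *Mup1* and *Mup3*. Major urinary proteins are pheromone carriers made mainly in the liver, and their genes are near-identical copies, so the 6 ratios are not separate measurements. *Mup19* was not well above background in the *Pla2g3*+/+ vehicle pool and gave 4.81 in the pool labelled *Pla2g3*-/-, a ratio of at least 290-fold. *Mup1* gave 0.0458 and 2.65, a 57.8-fold ratio, and after AOM none of the 6 was well above background. Their part in the result for the digestive enzymes was not tested.

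**Figure D2:**
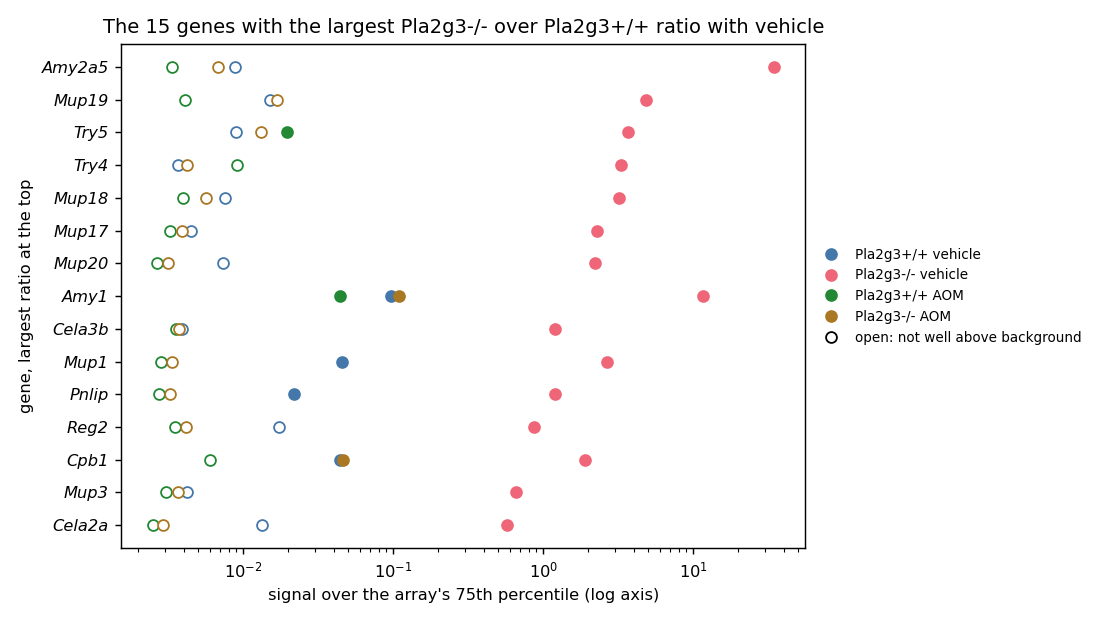
Signals of the 15 genes with the largest vehicle ratio of the pool labelled *Pla2g3*-/- over *Pla2g3*+/+, in that order from the top, on a log axis. Colours are the 4 arrays and open points were not well above background. The 9 exocrine pancreas genes and the 6 *Mup* genes share 1 high point, that of the vehicle pool labelled *Pla2g3*-/-.

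The other exocrine pancreas genes were taken from 3 lists. Of 13 other digestive enzyme genes on the array, 11 were over 2-fold higher with vehicle in the pool labelled *Pla2g3*-/- and 1 was lower, where 1.92% of 16320 genes were higher and 1.32% lower. The median log2 ratio was 3.00 over the list and -0.02 over all genes. The list was chosen with earlier results of these data known and is read on the picking array, so nothing is read from that gap either. Among the 11, *Ctrl*, a chymotrypsin-like protease, was 2.84-fold higher. Others ran on the log2 scale from *Rnase1* (1.86), *Pnliprp1* (2.45), *Cel*, the bile salt lipase (3.00), and *Ctrc* (3.67) to the elastases *Cela3a* (at least 5.05), *Cela2a* (at least 5.11) and *Cela3b* (at least 6.17), *Try5* (at least 7.79) and *Amy2a5* (at least 11.03). By their other probes the log2 ratios were 1.98 for *Ctrc*, 6.28 for *Amy2a5* and 8.03 for *Cela3a*, bounds included. *Pnliprp2*, a lipase-related protein, had a log2 ratio of -1.44, and *Pla2g1b*, the pancreatic phospholipase A2, was dim in both vehicle pools, with a log2 ratio of -0.08 by its brighter probe and at least 1.12 by its other probe. *Amy2b*, *Try10* and *Prss3* had no probe under these names.

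Among 10 genes for acinar secretory and granule proteins, 5 were over 2-fold higher and 0 lower with vehicle, with a median log2 ratio of 1.17 over the 9 with a ratio. The 5 were *Reg2* (at least 5.64 on the log2 scale) and *Reg1* (3.86), regenerating proteins, *Pdia2* (3.63), a disulphide isomerase of the pancreas, *Gp2* (1.71, and 0.43 by its lowest probe), the zymogen granule membrane glycoprotein, and *Serpini2* (at least 1.17). *Spink1*, a trypsin inhibitor, gave 146 and 125 in the vehicle pools, *Sycn*, syncollin of the zymogen granule, gave 259.7 and 153, and *Klk1*, tissue kallikrein, gave 126 and 110.3. These 3 were bright in both vehicle pools and under 2-fold apart, as *Cela1* and *Clps* were. *Erp27* was level at 1.05 and 1.07, and *Cuzd1* was below the detection call. Of 6 acinar transcription factor and receptor genes, 1 was over 2-fold higher, *Rbpjl*, at 0.0325 and 0.0868 (log2 1.42). *Ptf1a* and *Gata4* were not well above background in either vehicle pool, and *Bhlha15* (log2 -0.22), *Nr5a2* (0.10) and *Cckar*, the cholecystokinin receptor (-0.36), were under 2-fold apart. Over the 3 lists together, 17 of 26 genes with a ratio were higher and 1 lower.

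Markers of the islet and the duct, which lie beside acinar cells, did not show those ratios where a ratio could be formed. A further 3 islet genes and 2 duct genes were not well above background in either vehicle pool and have no ratio. Whether islet or duct RNA was present was not tested. Of 9 islet genes with a ratio, 0 were over 2-fold higher and 1 was lower, *Ppy* at log2 -1.01, and the list's median was -0.21. That 1 call became 0 without scaling, with scaling by the median, with quantile normalization and with normexp followed by quantile normalization, and quantile normalization gave 1 gene higher. *Ins1* and *Ins2*, the insulin genes, gave 0.0261 and 0.0364, and 0.134 and 0.155, in the *Pla2g3*+/+ pool and the pool labelled *Pla2g3*-/- with vehicle. *Chga* and *Gcg*, the brightest islet genes, gave 11.1 and 7.40, and 5.40 and 4.93, and both are also expressed by enteroendocrine cells of the colon. Of 6 duct genes with a ratio, 0 passed 2-fold in either direction (median log2 -0.04), and the brightest were *Krt19* and *Krt7*, keratins that other epithelia also express.

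Of the other tissues near the colon, the hepatocyte list moved with the enzymes. Over 2-fold higher with vehicle in the pool labelled *Pla2g3*-/- were 5 of 8 genes, *Ahsg* (at least 4.97 on the log2 scale), *Alb*, serum albumin (4.73), *Serpina1a* (3.83), *Fgb* (at least 3.59) and *Cyp2e1* (1.32), and 0 were lower, with a median of 2.45. The list's summed signal was 5.55 in the *Pla2g3*+/+ pool and 11.1 in the pool labelled *Pla2g3*-/- with vehicle, and 5.05 and 4.46 after AOM. *Ahsg* and *Fgb* were not well above background in any of the other 3 pools. *Apoa2*, *Ttr* and *Tat*, which were above background in all 4 pools, were under 2-fold apart with vehicle by their brightest probes. The other *Apoa2* probe had a log2 ratio of 1.84, and 6 of 8 genes were higher with the mean over probes or the dimmest probe. Of 6 adipocyte genes with a ratio, 1 passed 2-fold, *Cfd* at log2 1.40, and the others lay between 0.64 and 0.92, for a summed signal of 18.6 and 38.7 with vehicle. The brightest were *Cfd* at 7.23 and 19.1 and *Fabp4* at 7.06 and 12.3. What part liver or fat RNA had in the enzyme signals was not tested.

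The remaining lists gave few ratios over 2-fold with vehicle. Of 3 stomach genes with a ratio 1 was higher, *Tff2* (at least 2.28 on the log2 scale), and *Gkn1* and *Gkn3* were not. Of 6 enterocyte genes with a ratio, *Apoa1* was higher (at least 1.36) and *Sis*, sucrase-isomaltase, lower (-2.32), and the brightest, *Fabp2* and *Fabp6*, were level. None of 6 B cell zone genes passed 2-fold (median -0.64). For the salivary gland, 1 of 5 genes had a ratio, *Dcpp2*, at most -0.29 on the log2 scale, a bound that does not settle 2-fold, while *Bpifa2* and *Smgc* were not well above background on any array. None of 13 colon epithelium genes, among them *Lgals4* (319 and 301) and *Car1* (141 and 178), and none of 6 smooth muscle genes, among them *Tagln* (194 and 201) and *Cnn1* (109 and 116), passed 2-fold, with medians of -0.08 and 0.07. The 2 vehicle pools thus held the defining markers of colon within 2-fold of each other.

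**Figure D3:**
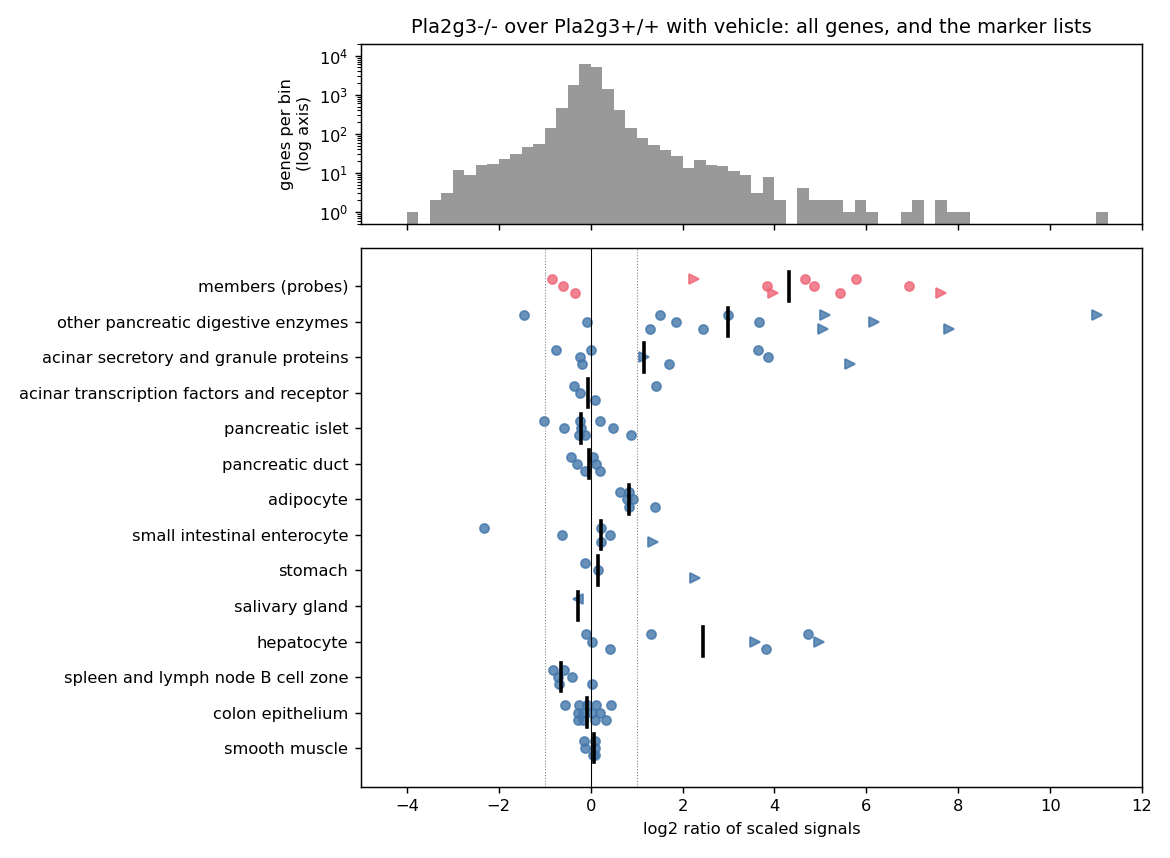
Log2 ratio of the pool labelled *Pla2g3*-/- over *Pla2g3*+/+ with vehicle, over all 16320 genes as a histogram with a log axis (upper panel) and for each probe of the 10 genes and each listed gene (lower panel). Triangles are bounds, black bars are medians and dotted lines are 2-fold. The 3 member probes left of 0 are those of *Cela1* and *Clps*, and of the non-pancreatic lists only that of hepatocytes has a median past 2-fold.

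After AOM, the array on which the genes were picked is not part of the comparison of genotypes. Of the 12 probes, 7 had a ratio, of which 4 were over 2-fold higher in the pool labelled *Pla2g3*-/- and 0 lower. Over all 28311 probes with a ratio, 14.1% were over 2-fold higher and 12.1% lower. The median log2 ratio was 1.31 over the 7 and 0.03 over all probes. *Amy1* was 2.48-fold higher (log2 1.31 ± 0.23, spot error), *Cpb1* at least 3.67-fold, the *Prss1* probe at 41412628 at least 3.40-fold, and *Cela1* 3.51-fold (log2 1.81 ± 0.20). *Ctrb1* had a ratio of 0.900 (log2 -0.15 ± 0.23), and the *Clps* probes had ratios of 1.62 and 1.39. *Pnlip*, *Prss2*, *Try4*, *Cpa1* and the *Prss1* probe at 41412562 were not well above background in either AOM pool and have no ratio. Of the 4 higher, 3 were at or under 0.109 in both pools, and only *Amy1* and *Cela1* were well above background in both. With normexp background correction and quantile normalization, *Cela1* alone stayed over 2-fold (1 of 12 probes), and the log2 ratios of *Amy1*, *Cpb1* and the *Prss1* probe were 0.59, 0.41 and 0.47.

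The other digestive enzymes had a different balance after AOM. Of 9 with a ratio 1 was over 2-fold higher in the pool labelled *Pla2g3*-/- and 3 were lower, where 15.1% of 17116 genes were higher and 12.9% lower. *Pnliprp1*, a lipase-related protein, gave 4.34 in the *Pla2g3*+/+ AOM pool and 0.0654 in the pool labelled *Pla2g3*-/-, a log2 ratio of -6.05. *Pnliprp2* gave 1.86 and 0.0614 (log2 -4.92), and *Rnase1*, the pancreatic ribonuclease, gave 0.474 against a signal not well above background (log2 at most -5.02). The higher gene was *Pla2g1b* (log2 1.43). Among the granule proteins, *Sycn* (log2 5.56), *Klk1* (5.09), *Gp2* (3.75) and *Spink1* (1.49) were higher and *Pdia2* (-2.23) and *Erp27* (-1.10) lower, and among the acinar factors *Nr5a2* (4.27) and *Cckar* (at least 1.37) were higher. Over the 3 lists, 7 of 20 genes with a ratio were higher and 5 lower. Beside these values, 9 of 13 colon epithelium genes, 6 of 6 smooth muscle genes and 5 of 6 adipocyte genes were also over 2-fold higher in the pool labelled *Pla2g3*-/- after AOM, with median log2 ratios of 1.87, 5.34 and 1.87. The part of these tissue differences in the ratios of the enzymes was not tested. Albumin went the other way from its vehicle ratio, at 2.12 in the *Pla2g3*+/+ AOM pool and not well above background in the pool labelled *Pla2g3*-/-.

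**Figure D4:**
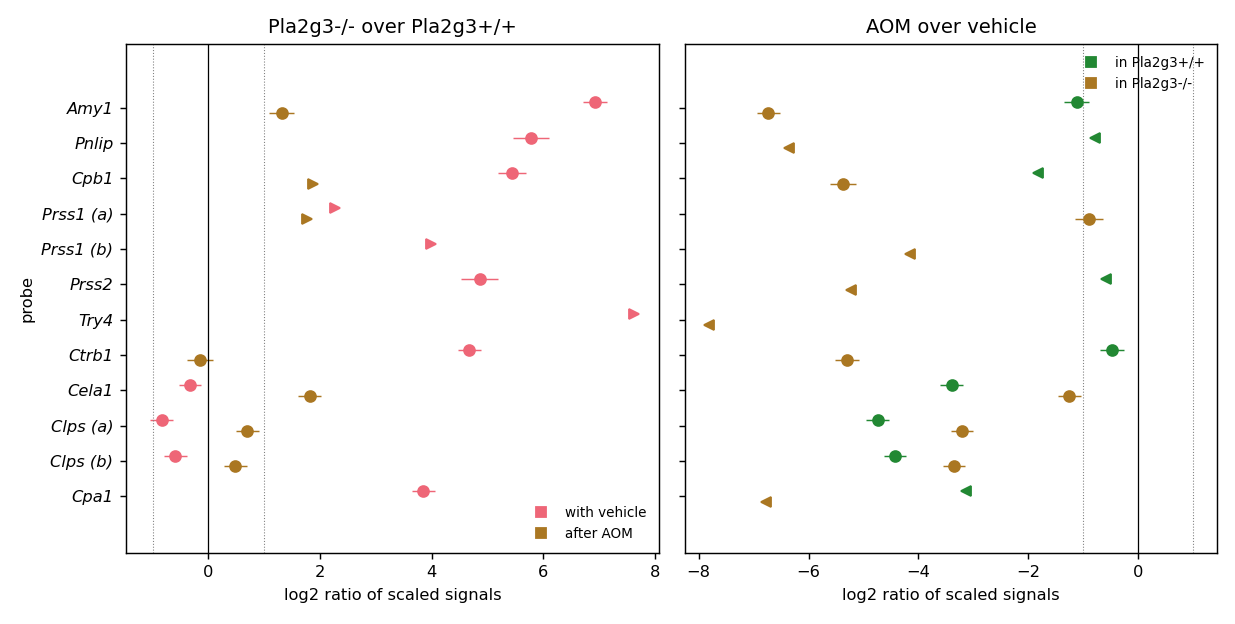
Log2 ratios of the 12 probes between genotypes with vehicle and after AOM (left) and of AOM over vehicle in each genotype (right). Circles are measured ratios with the spot error, triangles are bounds that point to where the ratio may lie, probes below background on both arrays have no symbol, and dotted lines are 2-fold. With vehicle, 9 probes lie right of the 2-fold line, and on the right no probe lies above 0.

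AOM over vehicle in *Pla2g3*+/+ mice does not include the pool picked for high signals. It is not free of the choice of genes, however. *Cela1* and *Clps* were called level against another pool, so the *Pla2g3*+/+ vehicle array may have entered the choice. Of 9 probes with a ratio, 6 were over 2-fold lower after AOM and 0 higher, where 14.9% of 28441 probes were higher and 21.7% lower. The median log2 ratio was -1.82 over the 9 and -0.18 over all probes. The probes of *Clps* fell by 4.74 and 4.43 on the log2 scale and *Cela1* by 3.40, each ± 0.21 or less (spot error). *Cpa1* was at least 8.81-fold and *Cpb1* at least 3.53-fold lower, and *Amy1* was 2.18-fold lower (log2 -1.12 ± 0.23). *Ctrb1* was under 2-fold apart (log2 -0.48). *Pnlip* and *Prss2* had log2 ratios of at most -0.80 and -0.59, bounds that do not settle whether they passed 2-fold. The 2 *Prss1* probes and *Try4* were not well above background in either pool. The array scale matters here, since the 75th percentile was an intensity of 647 with vehicle and 1312 after AOM: without scaling, 44.9% of all probes were over 2-fold higher and 6.23% lower, 4 of the probes were lower and 0 higher, and the log2 ratios of *Amy1* and *Ctrb1* were -0.10 and 0.54. *Cela1*, *Clps* and *Cpa1* stayed over 2-fold lower under each scaling tried. In the other exocrine lists 10 of 20 genes with a ratio were lower and 4 higher, where 22.3% of 17195 genes were lower and 15.1% higher, and without scaling the split was 6 lower and 8 higher. *Klk1* (log2 -6.63), *Sycn* (-6.23) and *Nr5a2* (-4.30) fell with *Cela1* and *Clps*, and *Pnliprp1* (5.67) and *Rnase1* (3.97) were higher. All 6 smooth muscle genes and 8 of 13 colon epithelium genes were also over 2-fold lower on the AOM array, and their part in these ratios was not tested.

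In the pools labelled *Pla2g3*-/-, the vehicle array used for picking is the denominator, so the ratios describe the same high values again. After AOM, 11 of 12 probes were over 2-fold lower and 0 higher, where 11.2% of 26920 probes were higher and 15.5% lower. The median log2 ratio was -5.26 over the 12 and -0.07 over all probes. The measured falls were 107-fold for *Amy1* (log2 -6.74 ± 0.21), 41.4-fold for *Cpb1* and 39.6-fold for *Ctrb1*. The bounds were at least 224-fold for *Try4*, 109-fold for *Cpa1*, 81.8-fold for *Pnlip* and 37.3-fold for *Prss2*, and have no order among the measured values. The *Prss1* probe at 41412562 was at least 17.9-fold lower and that at 41412628 was 1.86-fold lower, the 1 probe under 2-fold. *Clps* was 9.24-fold and 10.2-fold lower. *Cela1* was 2.38-fold lower (log2 -1.25 ± 0.20), and its log2 ratio was -0.41 without scaling and -0.93 with quantile normalization. Of 26 genes of the other exocrine lists 20 were lower and 1, *Pla2g1b*, was higher (log2 2.45 by its brighter probe and at most -1.30 by its other probe), where 15% of 16441 genes were lower and 9.67% higher. Without scaling, 38.9% of all probes were over 2-fold higher and 3.96% lower, and 10 of the 12 probes were lower. The comparisons of treatment and of genotype share arrays, so their ratios are not independent of each other.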

How the data were processed

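RNA pooled within each group was labelled with Cy3 and hybridised to 4 Agilent one-colour arrays on 1 slide, from 27.7 ng of total RNA per the labels. The authors deposited the processed intensity of Feature Extraction 11.5.1.1, which per the file headers is background-subtracted and detrended within the array, with no scaling between arrays. The software's call of a spot well above background and its spot error, also deposited, were used as they stand. A deposited table holds the authors' linear ratio of that intensity to the array's 75th percentile and served as an alternative.

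Here control and outlier spots were left out, intensities of replicate spots of a probe were averaged on the log2 scale to 39429 probes, and the 75th percentile over the spots of the array was subtracted. Differences between 2 arrays over 2-fold were counted. Where 1 side was not well above background it was set to the higher of its own signal and the dimmest signal that its array called well above background (0.0125 to 0.0227 of the 75th percentile), and the ratio is a bound. No ratio was formed where both sides were below, or where 1 side was below and its bound fell on the wrong side of no difference. Depth is not defined for arrays, and the number of arrays limits the precision. With 1 array per group no test was run. The calculation was tested on simulated data.

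The 10 genes and the 13 marker lists were chosen with earlier results of these data known. Named genes were the 10, the genes of the 3 exocrine lists (1 of which is counted but not reported by name here), the 15 largest vehicle ratios, and from each other list genes past 2-fold with vehicle and the 2 brightest. A listed gene is its brightest probe over the 4 arrays, named through RefSeq (GRCm38.p6, names and promoters only), which gave 22262 genes for 31051 probes. Probe coordinates are those of the array files (mm9). Python 3.11.15 with pandas 2.3.3 and limma 3.58.1 in R 4.3.3 (normexp with an offset of 50) were used. The alternatives were other scalings, normexp, other treatments of dim probes, 1.5-fold and 4-fold thresholds, other probes of a gene, outlier spots kept and the deposited table.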

Additional observations from a re-analysis of the deposited data

Results flagged for a closer look

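The ratios of *Cela1* and *Clps* between genotypes had opposite signs under the 2 treatments. The log2 ratio of the pool labelled *Pla2g3*-/- over *Pla2g3*+/+ was -0.33 with vehicle and 1.81 after AOM for *Cela1*. It was -0.84 and 0.70 for the *Clps* probe at 28695761, and -0.59 and 0.48 for the *Clps* probe at 28695162. With 1 array per group, whether the treatments differ in this way was not tested. Of the 6 ratios, that of *Cela1* after AOM was the only one past 2-fold. The vehicle values include the array on which the genes were picked, and the *Pla2g3*+/+ AOM array stood apart in smooth muscle and colon epithelium genes.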

How the results depend on the processing

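Of 344 ratios of single probes recomputed under the alternatives, 330 kept their direction and their side of the 2-fold threshold, and 0 reversed past it. That total includes settings that could hardly move these ratios. The deposited table and outlier spots kept changed 0 of 40 each, and probes above background on both arrays only changed 0 of 26. Normexp with quantile normalization changed 7 of 40, and no scaling 4 of 38. Of 192 counts of member probes and exocrine genes, 173 stayed within 1.5 times. With normexp background correction and quantile normalization together, the probes higher in the pool labelled *Pla2g3*-/- after AOM came to 1 in place of 4. With probes above background on both arrays only, they came to 2, the other exocrine genes higher with vehicle to 10 in place of 17, and the probes and exocrine genes lower after AOM in the pools labelled *Pla2g3*-/- to 6 in place of 11 and 11 in place of 20. With no bounds on dim signals, 1 probe was lower in the pool labelled *Pla2g3*-/- after AOM and 1 was higher after AOM in *Pla2g3*+/+, in place of 0 and 0. A 4-fold threshold left 0 of those 4 probes after AOM, 11 of the 17 exocrine genes higher with vehicle and 0 of the 1 lower, 4 of 7 higher in the pool labelled *Pla2g3*-/- after AOM, and 2 of 4 higher and 6 of 10 lower after AOM in *Pla2g3*+/+. At 1.5-fold, 2 probes and 2 exocrine genes were lower with vehicle, and 2 exocrine genes were higher after AOM in the pools labelled *Pla2g3*-/-. Without scaling, exocrine genes higher and lower after AOM were 8 and 6 in *Pla2g3*+/+, and 2 were higher in the pools labelled *Pla2g3*-/-, in place of 4, 10 and 1. The median log2 ratio of the probes ranged over the alternatives from 2.75 to 4.76 with vehicle, from 0.24 to 1.35 after AOM, from -3.40 to -0.51 for AOM over vehicle in *Pla2g3*+/+ and from -5.75 to -3.22 in the pools labelled *Pla2g3*-/-. The counts with fewer probes or another threshold follow from those settings, and for the others the cause was not tested. No paired analysis was possible because each group has 1 array and no replicate number. Signals under the lowest detected signal of an array have no order.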
